A study of Mus musculus with 32 samples.

Results

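MiR-216a, miR-216b, miR-217 and miR-375 are 4 microRNAs (miRNAs, small RNAs that lower the output of matching messenger RNAs) known for their enrichment in the pancreas. They were followed here in small RNA libraries of mouse mesenteric arteries, which carry blood to the intestine. The members were chosen by name, as every row called miR-216a, miR-216b, miR-217 or miR-375 after removal of the species prefix and the arm. That gave 8 rows of the 1030 distinct rows in the table: both arms (5p and 3p) of each of the 4 hairpins. The libraries came from male C57BL/6J mice, wild type, 10 to 12 weeks old. Infused mice received angiotensin II (Ang II, a peptide hormone that raises blood pressure) at 1000 ng/kg/min from an osmotic pump under the skin, and control mice had sham surgery. The groups were 7-day Ang II, 7-day sham, 14-day Ang II and 14-day sham, with 8 libraries each from 10 mice per group. No group carried a transgene or a deletion, and the vessels had been cleaned of fat, veins and neighbouring tissue before RNA extraction, per the labels. The labels give a mouse number to each library, and it was taken that each library came from a separate mouse.

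MiR-216a, miR-216b and miR-217 are made from neighbouring hairpins and are known for their high level in the acinar cells of the pancreas, which secrete digestive enzymes. MiR-375 is abundant in the hormone-secreting cells of the pancreatic islets, where in mice it restrains insulin release, and it is also made by other endocrine and epithelial cells, including some of the gut. MiR-217 has also been studied in human endothelial cells, where it targets SIRT1. The mesenteric arteries run beside the pancreas and the intestine, and the question here was at what level these miRNAs are found in the dissected vessels, and whether they vary with Ang II or with markers of other tissues. In bulk RNA, more cells of a type and more RNA per cell cannot be told apart.

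Mature sequences of 7 of the 8 members were matched in RefSeq (GRCm38.p6). They are shown because the seed, bases 2 to 8 of the mature strand and printed in capitals, sets which messages a miRNA can pair with, and because the sequences tell how far apart the members are for read assignment. The 5p arms of the chromosome 11 members come first, then their 3p arms, then the 5p arm of miR-375.
miR-216a-5p: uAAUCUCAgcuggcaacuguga
miR-216b-5p: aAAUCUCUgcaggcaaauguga
miR-217-5p: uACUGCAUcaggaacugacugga
miR-216a-3p: cACAGUGGucucugggauuaug
miR-216b-3p: aCACUUACcuguagagauucuu
miR-217-3p: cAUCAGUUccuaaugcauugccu
miR-375-5p: gCGACGAGccccucgcacaaac
The mature sequence of miR-375-3p is named only. For miR-375 the hairpin is shown, with the miR-375-5p stretch in capitals.
Mir375 hairpin: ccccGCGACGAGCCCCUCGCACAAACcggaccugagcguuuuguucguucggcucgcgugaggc

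No 2 of the 7 sequences had the same seed, and no other mature miRNA of the RefSeq table had any of the 7. MiR-216a-5p and miR-216b-5p matched at 18 of 22 positions counted from the 5′ end, and their seeds differed at 1 base, A8U (miR-216a-5p first). MiR-217-5p matched either of them at 6 of 22 positions. Over the whole strand miR-216a-5p and miR-216b-5p differ at 4 positions.

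The hairpins of the first 3 members lie on the plus strand of chromosome 11 within 17.645 kb. Mir216b is at chr11:28746191-28746276, Mir216a at chr11:28757012-28757083 and Mir217 at chr11:28763728-28763835. The gaps between them are 10.736 and 6.645 kb. Mir216a and Mir217 lie in introns of the long noncoding RNA gene Gm12082 on the same strand. Mir216b lies outside Gm12082 and overlaps an annotated miRNA on the opposite strand, Mir216c (chr11:28746198-28746266). Whether strand was used in counting is not given in the sources used here, so reads of Mir216b and Mir216c could not be told apart from the table. Mir375 lies between genes on the minus strand of chromosome 1, at chr1:74900658-74900721, 1.35 kb from Cfap65 and 1.816 kb from Cryba2.

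All levels below are normalised RPM, in which M stands for mega. The deposited values turned out to be multiples of what 1 read was worth in a library, so whole reads could be recovered; there were 11.4 to 18.8 M of them in the distinct rows of a library. The floor of 3 reads was 0.0888 to 0.351 RPM. It covers counting error only, because PCR copies were not marked by molecular identifiers. After the group means were subtracted, the libraries still differed along 1 main axis. That axis, principal component 1 of the deviations from group means, carried 35.6% of their variance and parted 19 libraries (class A) from 13 (class B). In 7-day Ang II 3 libraries were of class A and 5 of class B, and in 7-day sham 5 and 3. In 14-day Ang II 6 were of class A and 2 of class B, and in 14-day sham 5 and 3. The classes were defined from these data. The mouse numbers also fell into series with the leading digits 26, 27, 28 and 30, which the labels do not explain. Series 26 and 30 held 14-day libraries only. Rows known from arteries were present throughout: all 4 rows of the smooth muscle miRNAs miR-143 and miR-145a, and both rows of miR-126 of the endothelium, had reads in 32 of 32 libraries.

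Every library contained the pancreas-enriched miRNAs. MiR-375-3p, the main arm of miR-375, was by far the most abundant member. It averaged 3491 RPM over the 32 libraries, rank 23 of the 1030 distinct rows, and took 0.345% ± 0.0986 of the reads (SD, n = 32), with 0.173 to 0.537% in single libraries. MiR-217-5p averaged 97.6 RPM (rank 130) and miR-216a-5p 91.1 RPM (rank 134). MiR-216b-5p stood at 19.4 RPM (rank 228) and miR-216a-3p at 17.8 RPM (rank 236). MiR-217-3p and miR-216b-3p were lower, at 5.57 and 4.48 RPM. Mature miRNAs are of nearly equal length, so their RPM levels can be set side by side, apart from unequal adapter ligation. Among the 543 rows that averaged 1 RPM or more, the median level was 10.6 RPM.

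The 8th row, miR-375-5p, the minor arm of miR-375, averaged 0.181 RPM. It had 99 reads in all 32 libraries together and was listed at 0 in 3. Over all libraries miR-375-3p had 17192 reads for each read of miR-375-5p. With a mean below 1 RPM, miR-375-5p was left out of the tests, and the other 7 rows passed. Its highest values in the groups were 0.289 RPM in 7-day Ang II against 0.392 RPM in 7-day sham, and 0.50 RPM in 14-day Ang II against 0.680 RPM in 14-day sham.

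The members from the chromosome 11 hairpins were first compared by group. MiR-217-5p ran from 57.9 to 139.8 RPM with a median of 96.8 RPM in 7-day Ang II, against 60.1 to 187.7 RPM with a median of 86.1 RPM in 7-day sham. At 14 days miR-217-5p ran from 63.6 to 109.6 RPM with a median of 82.0 RPM with Ang II, against 70.4 to 151.0 RPM with a median of 104.7 RPM in sham. The groups overlapped at both times. The libraries above 140 RPM were all sham libraries, but a 7-day Ang II library lay just below, at 139.8 RPM. MiR-216a-5p ran from 48.1 to 137.3 RPM (median 88.2) in 7-day Ang II, against 46.7 to 197.3 RPM (median 81.6) in 7-day sham. At 14 days it ran from 39.4 to 96.6 RPM (median 66.6) with Ang II, against 53.4 to 177.6 RPM (median 80.8) in sham. Here too the ranges overlapped, and 3 of 8 14-day Ang II libraries lay above the sham median.

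MiR-216b-5p had another distribution. In 7-day Ang II it ran from 7.17 to 51.5 RPM with a median of 15.3 RPM, against 8.65 to 28.5 RPM with a median of 21.9 RPM in 7-day sham. At 14 days it ran from 8.56 to 30.3 RPM (median 17.3) with Ang II, against 10.5 to 31.9 RPM (median 17.1) in sham. The highest value, 51.5 RPM in 7-day Ang II replicate 2, stood alone in its group, where the next was 26.3 RPM. The same library had 82.9 RPM of miR-216a-5p and 100.8 RPM of miR-217-5p, both within the range of its group.

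The 3p arms were lower and had the same overlaps. MiR-216a-3p averaged 18.4 ± 8.48 RPM in 7-day Ang II and 17.4 ± 8.85 RPM in 7-day sham, and 12.9 ± 4.73 RPM in 14-day Ang II and 22.3 ± 12.1 RPM in 14-day sham (SD, n = 8 each). MiR-216b-3p averaged 4.62 ± 1.22 RPM in 7-day Ang II and 5.01 ± 2.03 RPM in 7-day sham, and 3.37 ± 1.39 RPM in 14-day Ang II and 4.90 ± 2.03 RPM in 14-day sham (SD, n = 8 each). For both of these arms, 1 of 8 14-day Ang II libraries lay above the sham median. MiR-217-3p averaged 5.06 ± 1.34 RPM in 7-day Ang II and 6.5 ± 2.60 RPM in 7-day sham, and 5.44 ± 1.33 RPM in 14-day Ang II and 5.28 ± 2.3 RPM in 14-day sham (SD, n = 8 each).

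MiR-375-3p, the islet-enriched member, ran from 2518 to 5307 RPM with a median of 4112 RPM in 7-day Ang II, against 2167 to 5823 RPM with a median of 3761 RPM in 7-day sham. At 14 days it ran from 1645 to 3128 RPM with a median of 2253 RPM with Ang II, against 1709 to 7647 RPM with a median of 3273 RPM in sham. The 14-day Ang II libraries were all below the 14-day sham median, but the sham libraries spread across and above the Ang II range, from 1709 RPM in replicate 2 to 7647 RPM in replicate 7. Replicate 7 of 14-day sham was also the highest of all 32 libraries. Group means were 3997 ± 1045 RPM in 7-day Ang II and 4046 ± 1202 RPM in 7-day sham, and 2328 ± 491 RPM in 14-day Ang II and 3594 ± 2075 RPM in 14-day sham (SD, n = 8 each).

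**Figure D1:**
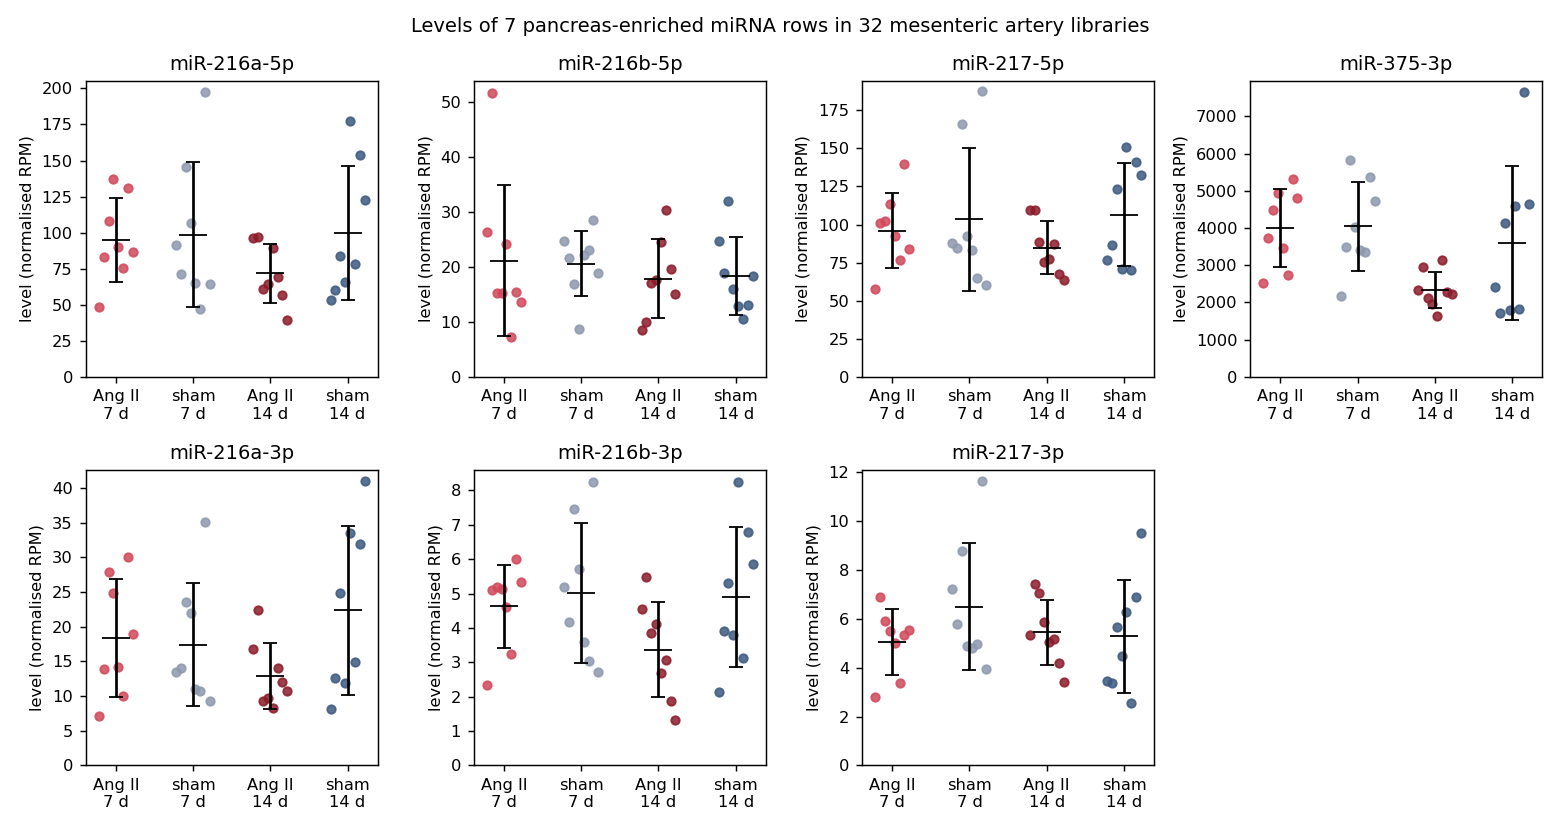
Levels of the 7 tested rows in normalised RPM (vertical axes start at 0 and differ between panels) in 4 groups of 8 libraries: points are libraries, horizontal ticks are group means and bars are the SD. The groups overlap in every panel; the 14-day Ang II libraries of miR-375-3p lie between 1645 and 3128 RPM, while the 14-day sham libraries spread from 1709 to 7647 RPM.

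In the order of the group means, 14-day Ang II was the lowest of the 4 groups for miR-216a-5p, miR-216a-3p, miR-216b-5p, miR-216b-3p, miR-217-5p and miR-375-3p. The lowest group for miR-217-3p was 7-day Ang II. In each of the 7 rows, neighbours in the order differed by less than the larger of their SDs. The plot of levels by group shows these overlaps.

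The first comparison asked whether 7 days of Ang II moved these miRNAs. None of the 7 tested members passed limma's moderated test at an adjusted p under 0.05. The background was 1 call in 543 rows, or 0.184%, which was the smooth muscle row miR-145a-3p, lower with Ang II. No member had an unadjusted p under 0.05, and edgeR and DESeq2 called no member either. The fold changes were small. For miR-375-3p the log2 estimate was -0.0047 ± 0.26 (SE, 95% interval -0.53 to 0.52, adjusted p = 0.995). MiR-217-5p had -0.038 ± 0.22 (95% interval -0.48 to 0.40, adjusted p = 0.995). The one farthest from 0 was miR-217-3p at -0.28 ± 0.21 (95% interval -0.70 to 0.14, adjusted p = 0.861). The median of the 7 log2 fold changes was -0.038, beside -0.014 over all 543 rows. Within mouse-number series 27 and 28, miR-217-5p had -0.18 and 0.12, and miR-375-3p had 0.030 and -0.0040. MiR-216b-5p had 0.48 in series 27, which holds replicate 2 of 7-day Ang II, and -0.93 in series 28.

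After 14 days of Ang II, 6 of the 7 members had lower mean log2 levels than in sham, beside 49.9% of all 543 rows. The 7 rows are not independent: all but miR-375-3p are arms of the chromosome 11 hairpins. The rows other than miR-216b-5p also varied together between libraries (r = 0.58 to 0.90), and the count of lower members was not tested. With library totals alone 5 of 7 were lower, and miR-216b-5p was at 0.21. On that scale the median of all rows was 0.23, and 6 of 7 members lay below it. None of the members passed the test. Here 35 of 543 rows, 6.45%, were called (24 higher, 4.42%, and 11 lower, 2.03%), and the members contributed 0 of 7. No member had an unadjusted p under 0.05, and edgeR and DESeq2 called no member. MiR-216a-3p had the lowest fold change, 0.649-fold, with a log2 value of -0.62 ± 0.32 (SE, 95% interval -1.27 to 0.022, adjusted p = 0.205). MiR-375-3p stood at 0.731-fold, with -0.45 ± 0.26 (95% interval -0.97 to 0.069, adjusted p = 0.254). MiR-216b-3p had -0.43 ± 0.23 (adjusted p = 0.231), miR-216a-5p -0.40 ± 0.27 (adjusted p = 0.348) and miR-217-5p -0.29 ± 0.22 (adjusted p = 0.398).

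MiR-216b-5p was at -0.052 ± 0.29 (adjusted p = 0.910) after 14 days, and the 1 member above 0 was miR-217-3p at 0.091 ± 0.21 (adjusted p = 0.806). The median of the 7 members was -0.40, beside 0.0021 over all 543 rows. Scaling to library totals alone moved the median of all rows to 0.23 in this comparison and that of the members to -0.13. On that scale miR-375-3p had -0.18, miR-216a-5p -0.13, miR-217-5p -0.017, miR-216a-3p -0.37, miR-216b-3p -0.21 and miR-217-3p 0.33. The intervals still allow a fall of about the size of the estimates as well as no difference. Without 14-day sham replicate 7, the library with the highest miR-375-3p, its log2 fold change was -0.27.

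**Figure D2:**
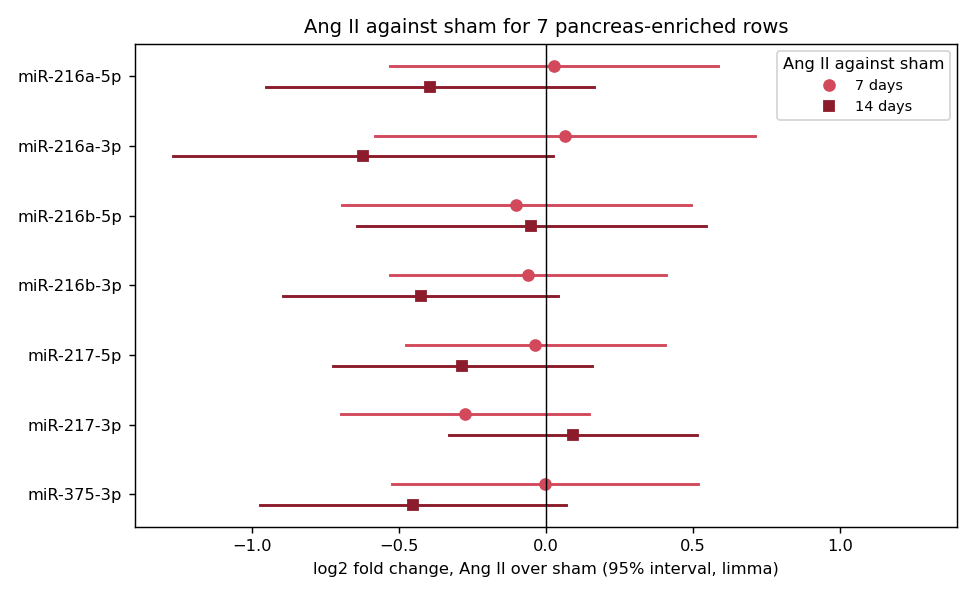
Log2 fold changes of Ang II over sham for the 7 tested rows at 7 days (circles) and 14 days (squares), with 95% intervals from limma. All 14 intervals include 0. At 14 days 6 of the 7 estimates lie below 0, with miR-216a-3p the lowest at -0.62. With library totals alone 5 lie below 0 and 6 below the median of all rows. The rows are not independent of each other.

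One mouse-number series could be compared within itself at 14 days. Series 26 held 5 of the 14-day Ang II and 6 of the 14-day sham libraries. Within it the log2 fold change was 0.014 for miR-216a-5p, -0.019 for miR-217-5p, -0.017 for miR-216b-3p, -0.33 for miR-216a-3p, -0.29 for miR-216b-5p, 0.46 for miR-217-3p and -0.22 for miR-375-3p. At 14 days class B, where 6 of the 7 rows were higher with the authors' scaling, held 2 of the 8 Ang II and 3 of the 8 sham libraries. Within class A (6 Ang II and 5 sham libraries) miR-375-3p had -0.034, miR-216a-5p -0.13, miR-216a-3p -0.34, miR-216b-5p 0.073, miR-216b-3p -0.30, miR-217-5p -0.13 and miR-217-3p 0.33. Class B held 2 Ang II against 3 sham libraries, few for a value. There miR-375-3p had -1.06 and miR-216a-3p -0.83, and the other 5 members ran from -0.63 for miR-216a-5p to -0.21 for miR-217-3p. With the class as a term over all libraries, miR-216a-3p had -0.50 (limma, adjusted p = 0.0845), miR-375-3p -0.37 (adjusted p = 0.194) and miR-217-5p -0.21 (adjusted p = 0.368). The classes were made from the spread of these same data, so p-values with the class as a term can be too small. With the mouse-number series as a term the values were -0.52, -0.36 and -0.13 for miR-216a-3p, miR-375-3p and miR-217-5p (limma, adjusted p = 0.360, 0.372 and 0.803). The part of the classes and the series in the 14-day values was not tested.

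The interaction, which compares the Ang II difference at 14 days with that at 7 days, gave no call among the 7 members and none among the 543 rows (0%) with limma. There were 25 rows with an unadjusted p under 0.05, none of them a member, and edgeR and DESeq2 called 0 rows. The estimates ran from -0.69 ± 0.45 for miR-216a-3p (adjusted p = 0.804) to 0.37 ± 0.29 for miR-217-3p (adjusted p = 0.831). For miR-375-3p the estimate was -0.45 ± 0.36 (95% interval -1.18 to 0.29, adjusted p = 0.831). The Ang II differences at 7 and at 14 days were thus not shown to differ.

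Sham mice were compared with each other to see how the members vary without Ang II. In 14-day sham against 7-day sham, limma called 0 of the 7 members and 0 of 543 rows (0%), with 18 rows and no member at an unadjusted p under 0.05. DESeq2 called 1 row and edgeR 0, neither of them a member. The log2 estimates were -0.31 ± 0.26 for miR-375-3p and 0.089 ± 0.22 for miR-217-5p (SE, adjusted p = 0.996 for both).

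In 14-day Ang II against 7-day Ang II, miR-375-3p had a log2 fold change of -0.76 ± 0.26 (95% interval -1.28 to -0.24), with an unadjusted p of 0.00562 by limma, rank 5 of 543. It failed the correction, with an adjusted p of 0.576. None of the 8 libraries of 14-day Ang II lay above the 7-day Ang II median, although the ranges overlapped. Limma called 0 of the 7 members and 0 of 543 rows (0%), with 40 rows and 1 member at an unadjusted p under 0.05, and edgeR and DESeq2 called 0 rows. The time points were nearly confounded with the mouse-number series: the 7-day Ang II libraries were of series 27 and 28, and 7 of the 8 14-day Ang II libraries were of series 26 and 30. With the series as a term the log2 fold change of miR-375-3p was 0.067, so time and series cannot be told apart here.

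The second question was whether the members vary together between single libraries. To keep the groups out of it, log2 levels were taken as deviations from the group means, and p-values come from permutation tests with 100000 resamples within groups, two-sided, adjusted over 20 relations. MiR-216a-5p and miR-217-5p rose and fell together, with a Pearson r of 0.90 and a Spearman rho of 0.91 (n = 32, raw p = 1e-05, the smallest the permutations can give, adjusted p = 6.67e-05 for both). Without the 2 libraries farthest from the median of miR-216a-5p, r was 0.87. The ratio of miR-217-5p to miR-216a-5p stayed between 0.826 and 1.61 in all 32 libraries, while each of them varied 3.24-fold and 5.01-fold. The relation was also seen within the series 26, 27 and 28 (r = 0.78, 0.90 and 0.96) and within class A (0.66, adjusted p = 0.0614) and class B (0.90, adjusted p = 0.0300).

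MiR-375-3p, from chromosome 1, varied with the chromosome 11 members, more loosely. Its r was 0.70 with miR-217-5p (rho 0.75, adjusted p = 0.000400) and 0.64 with miR-216a-5p (rho 0.69, adjusted p = 0.00132), and 0.69 and 0.62 without the 2 farthest libraries. In the series 26, 27 and 28 the r with miR-217-5p was 0.91, 0.84 and 0.59. Within the classes it was lower: 0.37 in class A and 0.60 in class B for miR-217-5p (adjusted p = 0.417 and 0.134), and 0.022 in class A and 0.58 in class B for miR-216a-5p (adjusted p = 0.978 and 0.202). The relation of miR-375-3p with miR-216a-5p thus did not hold within class A.

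These values depended on the scaling. The deposited columns added up to 0.727 to 1.67 M instead of the same sum in each. In a family of 6 relations added after the data were seen, the column total had an r of 0.55 with miR-217-5p and 0.68 with miR-375-3p (n = 32, permutation test, adjusted p = 0.00167 and 8e-05). A level and the column total carry the same scaling factor of a library. Part of an r between them is thus built in, and these p-values are a description. With library totals alone, where a level does not carry that factor, the r values were -0.22 and 0.071. On that scale the pair of miR-216a-5p and miR-217-5p had an r of 0.82 (adjusted p = 0.0001), miR-217-5p and miR-375-3p 0.49 (adjusted p = 0.0149), and miR-216a-5p and miR-375-3p 0.40 (adjusted p = 0.0449).

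**Figure D3:**
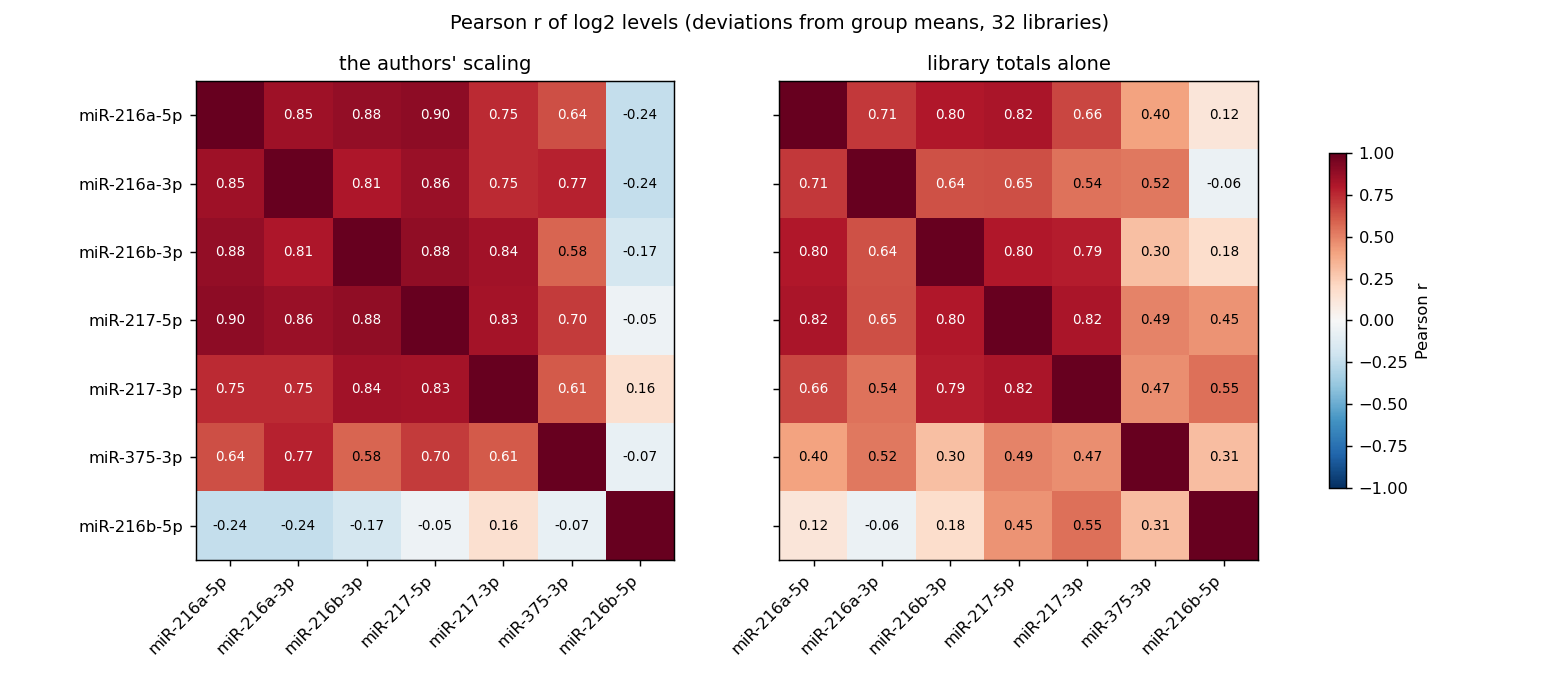
Pearson r between the 7 tested rows over 32 libraries (log2 levels as deviations from group means), with the authors' scaling on the left and library totals alone on the right; red is positive and blue negative. The rows other than miR-216b-5p are related at 0.58 to 0.90 on the left and 0.30 to 0.82 on the right, whereas miR-216b-5p lies between -0.24 and 0.16 on the left and between -0.061 and 0.55 on the right.

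MiR-216b-5p was the exception with the authors' scaling. Its r was -0.24 with miR-216a-5p (rho -0.29, adjusted p = 0.298), -0.054 with miR-217-5p (rho -0.15, adjusted p = 0.806) and -0.075 with miR-375-3p (rho -0.19, adjusted p = 0.787). On library totals alone the r of miR-216b-5p with miR-217-5p was 0.45 and passed (permutation test, adjusted p = 0.0449; rho 0.40, adjusted p = 0.0653), while those with miR-216a-5p, 0.12, and miR-375-3p, 0.31, did not (adjusted p = 0.639 and 0.172). It did not follow the other arm of its own hairpin either: the r of miR-216b-5p with miR-216b-3p was -0.17 (rho -0.32, adjusted p = 0.345, among the 6 added relations). In the other hairpins the arms moved together, at 0.85 for miR-216a and 0.83 for miR-217 (adjusted p = 3e-05 for both). MiR-216b-3p itself had an r of 0.88 with miR-216a-5p and 0.88 with miR-217-5p, values given as a description.

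The arm ratios show the same. The ratio of miR-216b-5p to miR-216b-3p ran from 1.52 in 7-day sham replicate 4 to 11.5 in 14-day sham replicate 1, a 7.59-fold range with a median of 4.35. That of miR-216a ran from 3.0 to 10.75 (median 5.42), a 3.59-fold range, and that of miR-217 from 12.1 to 27.7 (median 17.3), a 2.28-fold range. In reads, miR-216b-3p had 26 to 112 per library and miR-217-3p 35 to 171, so counting error weighs more on these ratios than on the 5p levels.

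With the authors' scaling, the miR-216b-5p values differed between the classes in the direction opposite to those of the other tested rows. MiR-216b-5p averaged 23.1 ± 8.67 RPM in class A (n = 19) and 14.1 ± 5.52 RPM in class B (SD, n = 13). MiR-216a-5p averaged 67.4 ± 15.3 RPM in class A and 125.8 ± 36.1 RPM in class B, miR-217-5p 79.9 ± 15.8 and 123.5 ± 33 RPM, and miR-375-3p 2740 ± 909 and 4589 ± 1407 RPM (SD). As the classes were made from all rows, the members included, these values are a description. The classes also differed in scaling: the columns added up to 0.727 to 1.24 M in class A and 1.15 to 1.67 M in class B. As a share of reads, miR-217-5p ran from 0.00592 to 0.0140% in class A and from 0.00603 to 0.0152% in class B. For miR-216a-5p the shares were 0.00476 to 0.0162% and 0.00598 to 0.0160%, for miR-375-3p 0.173 to 0.468% and 0.216 to 0.537%. For miR-216b-5p they were 0.000999 to 0.00636% and 0.000566 to 0.00230%. MiR-216b-5p was above its overall median in 14 of 19 class A and 2 of 13 class B libraries, miR-216a-5p in 4 of 19 and 12 of 13.

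Within the classes, miR-216b-5p had r values above 0 with miR-216a-5p, miR-217-5p, miR-375-3p and its own 3p arm. With miR-217-5p its r was 0.61 in class A and 0.79 in class B (adjusted p = 0.197 and 0.134), and with its own 3p arm it was 0.33 and 0.69 (adjusted p = 0.361 and 0.116). With miR-216a-5p the r was 0.28 and 0.70, and with miR-375-3p 0.47 and 0.58 (permutation test, adjusted p = 0.610, 0.164, 0.348 and 0.152). None of these passed the test. Over the mouse-number series the r of the 2 arms of miR-216b was -0.36, -0.20 and 0.79 in series 26, 27 and 28. The column total had an r of -0.64 with miR-216b-5p (adjusted p = 0.000450), and -0.83 with library totals alone (adjusted p = 3e-05). With the authors' scaling that sign was opposite to those of miR-217-5p and miR-375-3p with the column total. With library totals alone miR-217-5p had the same sign as miR-216b-5p, at -0.22.

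**Figure D4:**
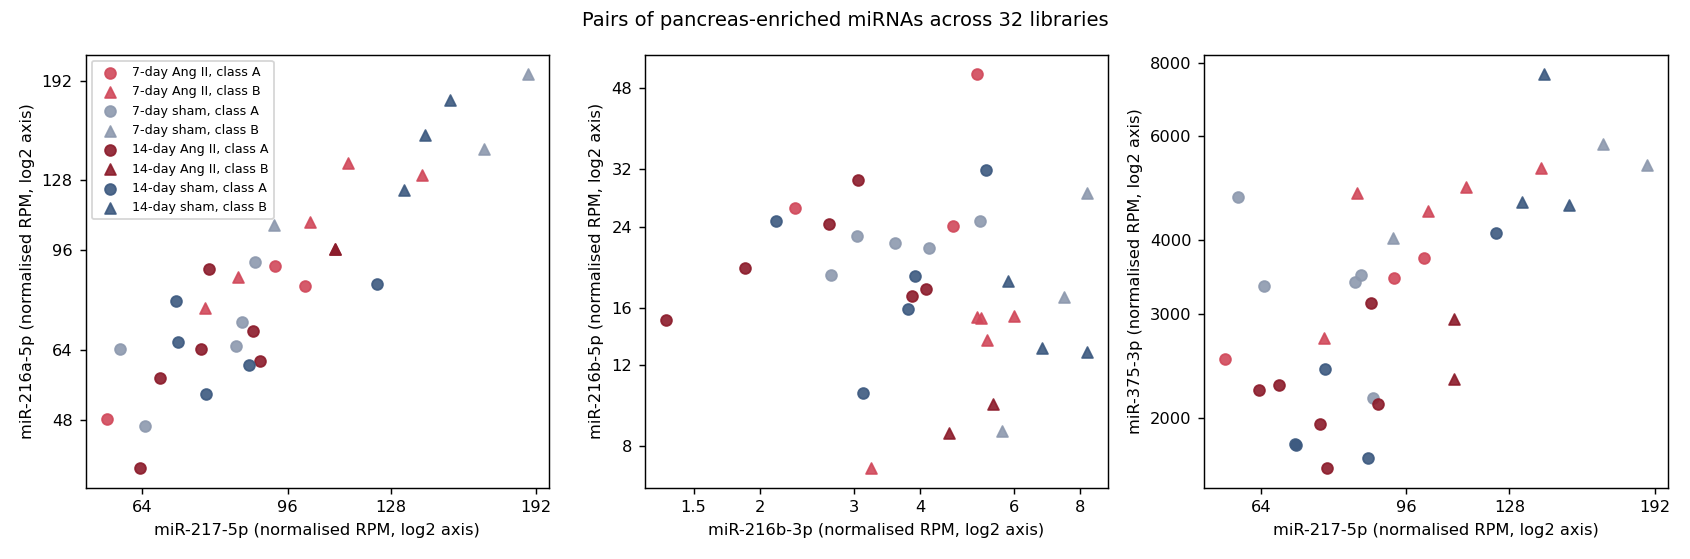
Levels of pairs of members in 32 libraries, in normalised RPM on log2 axes: miR-216a-5p against miR-217-5p, miR-216b-5p against miR-216b-3p, and miR-375-3p against miR-217-5p. Colours mark the groups; circles are class A and triangles class B. The first pair follows a line (r = 0.90), the arms of miR-216b form no single line (r = -0.17), with class B lower in the 5p arm and higher in the 3p arm.

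The spread of the members between mice was set beside that of all tested rows. The within-group SD of log2 levels was 0.66 for miR-216a-3p, 0.57 for miR-216a-5p, 0.44 for miR-217-5p, 0.60 for miR-216b-5p and 0.53 for miR-375-3p, beside a median of 0.36 over 543 rows. The 7 members stood between the 58.7 and the 84.3 percentile. With library totals alone, miR-216b-5p stood at the 89.0 percentile and the other 6 between the 24.5 and 47.1 percentiles. On the authors' scale all 7 thus lay above the median row, with miR-216a-3p the highest, and with library totals alone 1 of 7 did.

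Other miRNAs known from the pancreas were set beside the members: miR-148a, miR-7a, miR-7b, miR-802, miR-184, miR-153 and miR-335, 13 rows of which 12 were tested. Several of them are also made elsewhere, miR-148a and miR-802 in the liver among other tissues, and miR-7 and miR-153 in neurons. None of the 12 was called in any of the 5 comparisons. At 14 days 11 of 12 had a log2 fold change below 0, with a median of -0.32, beside 49.9% of all 543 rows below 0. With library totals alone 7 of 12 were below 0, with a median of -0.063. The median of all rows was 0.23 on that scale, and 11 of 12 lay below it. At 7 days 10 of 12 were below 0 on either scale, beside 53.4% of all rows with the authors' scaling. The medians of the 12 were -0.16 and -0.11. Several of the 12 rows are arms of the same miRNA, so these counts are not of independent rows. The summed level of the 13 rows was 11821 to 25873 RPM (median 16043) in 14-day Ang II, against 16211 to 38636 RPM (median 22636) in 14-day sham. Nearly all of it was miR-148a-3p, at 24731 RPM on average over the libraries, followed by miR-802-5p at 117 RPM. The sum thus says little of the other rows.

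MiR-148a-3p, a miRNA abundant in pancreas and liver, had the pattern most like that of miR-217-5p among all tested rows outside the members. Its r was 0.89 (rho 0.89, adjusted p = 6.67e-05, 0.87 without the 2 farthest libraries), and 0.80 with library totals alone. It was 0.88, 0.88 and 0.91 in series 26, 27 and 28, and 0.72 and 0.86 in class A and class B (adjusted p = 0.0614 and 0.0664). MiR-148a-3p stood at 24731 RPM on average, far above any member, and ran from 11636 to 50994 RPM. The next rows in likeness to miR-217-5p were Novel_y_5 (r = 0.87), miR-148a-5p (0.81), Novel_x_2 (0.77) and Novel_z_16 (0.75), with 0.79, 0.48, 0.40 and 0.27 on library totals alone; names of this form are the authors' and carry no location in the table.

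For miR-375-3p the 5 most alike rows were miR-148a-5p (r = 0.83), miR-184-3p (0.79), Novel_z_15 (0.78), miR-182-5p (0.77) and Novel_z_16 (0.74), over 32 libraries. For miR-216b-5p, a choice made after its values were seen, they were let-7d-5p (0.81), Novel_z_43 (0.81), Novel_z_53 (0.79), miR-423-3p (0.79) and miR-340-3p (0.78). No row of that list was among those of miR-217-5p or miR-375-3p. With library totals alone the r of these 5 rows with miR-216b-5p was 0.89 to 0.91. Those of the 5 rows with miR-375-3p were 0.57, 0.45, 0.45, 0.50 and 0.37, in the order above.

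MiR-7a-5p, known from islets and neurons, had an r of 0.56 with miR-217-5p and 0.67 with miR-375-3p (adjusted p = 0.00350 and 0.00163). With library totals alone these were 0.16 and 0.34. Within class A they were 0.0019 and 0.038, and within class B -0.090 and 0.38. Neither relation passed within a class (permutation test, adjusted p = 0.996 and 0.978 in class A, 0.915 and 0.535 in class B).

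Markers of gut epithelium had lower values, and the difference from those of miR-148a-3p was not tested. MiR-192-5p, made in gut epithelium, liver and kidney, had an r of 0.086 with miR-217-5p (rho 0.26, adjusted p = 0.787) and 0.33 with miR-375-3p (adjusted p = 0.260), where the rho of 0.44 passed (adjusted p = 0.0452). In series 26, 27 and 28 the r of miR-192-5p was 0.043, 0.83 and -0.34 with miR-217-5p, and 0.29, 0.62 and 0.25 with miR-375-3p. The epithelial miRNAs of the miR-200 family lay between: miR-141-3p had 0.60 with miR-217-5p (adjusted p = 0.00350) and 0.63 with miR-375-3p (adjusted p = 0.00469), and miR-200c-3p had 0.41 (adjusted p = 0.0538) and 0.60 (adjusted p = 0.00836). The rho of miR-200c-3p with miR-217-5p was 0.44 (adjusted p = 0.0424). On library totals alone, miR-141-3p with miR-217-5p passed by r and not by rho (0.42 and 0.39, adjusted p = 0.0449 and 0.0691). The r values with miR-375-3p did not pass on that scale: 0.43 for miR-141-3p (adjusted p = 0.0931) and 0.47 for miR-200c-3p (adjusted p = 0.0645). Their rho values of 0.50 and 0.56 did (adjusted p = 0.0294 and 0.0145). Within class A the r of miR-141-3p was 0.16 with miR-217-5p and 0.25 with miR-375-3p, and within class B 0.28 and 0.39. MiR-378a-3p, known from fat, had -0.22 with miR-217-5p and -0.014 with miR-375-3p (adjusted p = 0.340 and 0.955); in series 26, 27 and 28 these were -0.49, 0.50 and -0.35, and -0.20, 0.80 and 0.35. MiR-142-5p, of leukocytes, had -0.063 and -0.17 (adjusted p = 0.787 and 0.439).

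One library stood apart in markers of other tissues. In 14-day sham replicate 1, the gut and liver markers miR-192-5p and miR-194-5p were the highest of all 32 libraries. MiR-192-5p had 15285 RPM, where the next library had 8596 RPM, and miR-194-5p 1253 RPM, where the next had 300.2 RPM. The highest values of miR-122-5p (5.83 RPM) and miR-215-5p (58.3 RPM), of the same list, were in other libraries. The epithelial miR-429-3p and miR-200c-3p were also highest in 14-day sham replicate 1, at 752 and 145 RPM, as was miR-378a-3p of fat at 1518 RPM. The 9 rows of the fat list together reached 1739 RPM there, so most of that sum was miR-378a-3p. The other fat rows were not ranked by library. MiR-141-3p was 4th of 32 there, at 2255 RPM. In the same library miR-216a-5p was 53.4 RPM and miR-216a-3p 8.19 RPM, each the lowest of the 14-day sham group. MiR-217-5p was 76.5 RPM there, 6th of 8, and miR-375-3p 2424 RPM, 5th of 8. MiR-216b-5p was 24.7 RPM, 2nd of 8.

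**Figure D5:**
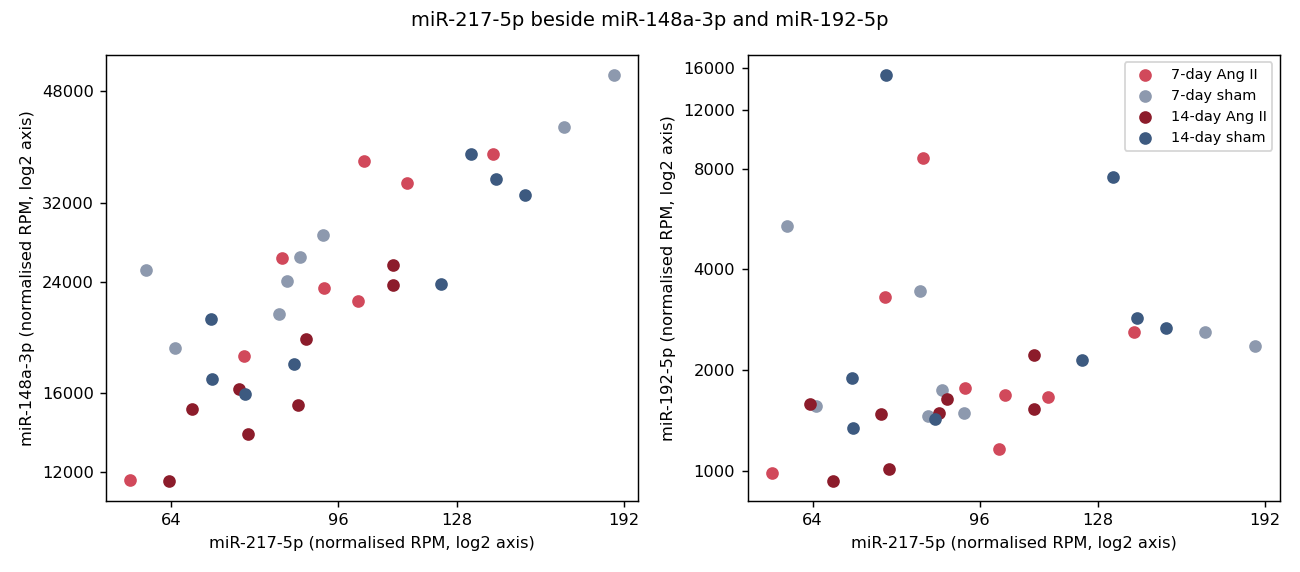
MiR-217-5p (horizontal) against miR-148a-3p (left) and miR-192-5p (right) in 32 libraries, in normalised RPM on log2 axes, coloured by group. MiR-148a-3p follows miR-217-5p (r = 0.89), while the libraries with the most miR-192-5p, up to 15285 RPM, lie across the range of miR-217-5p (r = 0.086).

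The remaining marker lists moved as follows in 14-day Ang II against 14-day sham. Of the 8 tested epithelial rows none was called and 8 were below 0 (median -0.71, and -0.44 with library totals alone, also with 8 below 0; with edgeR's RLE size factors miR-141-3p was called lower), with summed levels of 1066 to 1711 RPM in 14-day Ang II against 1273 to 4925 RPM in 14-day sham. Of the 4 tested gut and liver rows 3 were below 0, 4 with the size factors of edgeR, and none was called. Of the 5 red blood cell rows 2 were called and higher, miR-451a (log2 fold change 0.99, adjusted p = 0.0296) and miR-144-5p (1.16, adjusted p = 0.0493). With library totals alone miR-451a and the joint row miR-486-5p/miR-3107-5p were called, and miR-144-5p was not. None of the 5 fat, 6 leukocyte, 4 neuron, 4 smooth muscle and 2 endothelial rows tested was called at 14 days. MiR-378a-3p (fat) was called with edgeR's RLE size factors, and miR-223-5p (leukocytes) with library totals alone. The part of these tissues in the members' values was not tested.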

How the data were processed

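Small RNA of 32 mesenteric artery libraries was measured. Per the submitters' processing notes, edgeR (3.6.8), STAR (2.3.1) and bcl2fastq (1.8.4) were used on mm10; what each did, the annotation, and the handling of strand and of multi-mapping reads are not given in the sources used here. The deposited signal equals whole reads over an effective size of each library, per M (mega); 100% of values were whole within 0.001 read. The main test was limma-trend (version 3.58.1) under R 4.3.3 on log2(value + 1), which understates changes of low rows. One model covered 4 groups, with Benjamini-Hochberg adjustment over 543 rows.

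The table held 1722 rows and 1403 names. The highest-mean row per name was kept, rows at 0 throughout were dropped and equal rows merged (1030 left), and rows with a mean of at least 1 were tested. Recovered reads were used for edgeR 4.0.16, DESeq2 1.42.0 and other scalings; all settings are in the closing section. The script for the fits was tested on simulated data. The rows miR-142-5p and miR-126 stand for miR-142a and miR-126a in the lists. Rows that could be named were all members, any list row, and the 5 rows most alike to miR-217-5p and to miR-375-3p. Not every list row is named. Members and lists were chosen with earlier results of these data known. Replicate numbers follow the accession order and pair nothing.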

Additional observations from a re-analysis of the deposited data

Results flagged for a closer look

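Among the 8 members in 4 groups, 32 groups of 8 libraries were screened for a library whose gap to its nearest neighbour exceeded Dixon's 95% critical share of the group's range. Chance flags about 1 in 20 such groups, and 2 of 32 were found. MiR-216b-5p was 51.5 RPM in 7-day Ang II replicate 2, with the nearest library at 26.3 RPM (gap 0.568 of the range). MiR-375-5p was 0.50 RPM in 14-day Ang II replicate 6, with the nearest at 0.154 RPM (gap 0.834 of the range), at a level of a few reads.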

How the results depend on the processing

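None of the 7 members was called under another setting or with a library left out. That covers 1075 member values over the 5 comparisons, all from the same 32 libraries (lowest adjusted p = 0.0832). The spread between libraries set what could be seen: of the 95% intervals of Ang II against sham, all 14 included 0. Of 403 member values under other settings, 378 kept their sign and 25 turned; of 672 with a library left out, 55 turned. The cause was not tested. In 7-day Ang II against sham the log2 fold change of miR-216a-5p was -0.054 with edgeR, -0.071 with DESeq2 and -0.19 with the class as a term (chosen after seeing the data, as was TMM scaling), that of miR-216a-3p -0.19 with the class, that of miR-216b-5p 0.037 with edgeR and 0.088 with the class, and with library totals miR-217-5p was at 0.0067 and miR-375-3p at 0.040. At 14 days miR-216b-5p was 0.21 with library totals. In the interaction miR-216b-5p was -0.073 with edgeR, -0.029 with DESeq2 and -0.23 with the class. With the mouse-number series as a term, 14-day against 7-day sham gave 0.016 for miR-216b-5p, 0.15 for miR-216b-3p, 0.089 for miR-217-3p and 0.43 for miR-375-3p, and 14-day against 7-day Ang II gave 0.22 for miR-216a-5p, 0.32 for miR-216a-3p, 0.093 for miR-216b-5p, 0.079 for miR-216b-3p, 0.28 for miR-217-5p and 0.067 for miR-375-3p. Between the Ang II groups, library totals gave 0.084 for miR-216b-5p and 0.067 for miR-217-5p, and the class 0.077 for miR-217-5p.

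With a library left out, the 7-day values ran from -0.10 to 0.19 for miR-216a-5p, -0.053 to 0.22 for miR-216a-3p, -0.31 to 0.075 for miR-216b-5p, -0.15 to 0.041 for miR-216b-3p, -0.13 to 0.10 for miR-217-5p and -0.12 to 0.084 for miR-375-3p. At 14 days they ran from -0.17 to 0.074 for miR-216b-5p and -0.015 to 0.21 for miR-217-3p, and in the interaction from -0.13 to 0.26 for miR-216b-5p. Between the sham groups they ran from -0.11 to 0.19 for miR-216a-5p, -0.14 to 0.084 for miR-216b-3p and -0.0048 to 0.23 for miR-217-5p, and between the Ang II groups from -0.30 to 0.079 for miR-216b-5p.

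Over all rows, the 1 call at 7 days became 0 with library totals and with the compared groups alone, and 0 to 1 with a library left out. At 14 days, against 35, there were 23 calls with library totals, 17 with no filter and 3 with the compared groups alone. EdgeR gave 54 and DESeq2 61. There were 80 with the class as a term, which was made from the spread of these same rows. Leaving out a library gave 21 (14-day Ang II replicate 3) to 42. It gave 23 without replicates 5 or 7 of 14-day Ang II, and without replicates 5 or 8 of 14-day sham. Between the sham groups 1 call appeared with a mean of at least 10, DESeq2, the compared groups alone or the series, and 0 to 1 with a library left out, and between the Ang II groups 1 with the series.

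With library totals r was 0.12 for miR-216a-5p with miR-216b-5p, 0.45 for miR-216b-5p with miR-217-5p, 0.31 for miR-216b-5p with miR-375-3p, 0.18 for the arms of miR-216b, -0.12, 0.020 and 0.28 for miR-217-5p with miR-192-5p, miR-378a-3p and miR-142-5p, 0.030 for miR-375-3p with miR-142-5p and -0.22 for miR-217-5p with the column total; 3 of the 6 added relations then passed. Without subtraction of group means r was 0.0080 for miR-216b-5p with miR-375-3p and 0.054 for miR-375-3p with miR-378a-3p. MiR-216b-3p and miR-217-3p have no value with a mean of at least 10, and the interaction none with the compared groups alone. No paired analysis was possible because the replicate numbers were given in accession order and the labels pair no libraries.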
